A study of Mus musculus with 2 samples.

Results

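The interferon and innate sensing genes examined here are the genes whose symbols name interferon-induced proteins (Ifi, Ifit, Ifitm, Isg), interferon regulatory factors (Irf), oligoadenylate synthetases (Oas), guanylate-binding proteins (Gbp), Mx GTPases, interferon receptors (Ifnar, Ifngr), Stat2, Toll-like receptors (Tlr) and the RNA-sensing genes Ddx58, Dhx58 and Mavs. They were chosen by symbol alone, and 75 of the 18193 genes read by a probe set with 1 gene symbol matched, with 114 probe sets. Genes with no such probe set, Isg15 among them, were not analysed here. The matches include 4 genes called matched by name only below. They are neither interferon regulatory factors nor known as interferon-induced effectors. These are Irf2bp1, Irf2bp2 and Irf2bpl, which encode transcriptional corepressors, and Isg20l2, a nucleolar exonuclease of ribosome maturation.

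Total RNA of 2 clones of Klf5-overexpressing mouse E14 embryonic stem (ES) cells, labelled Klf5OE clone 1 and clone 2, was hybridised to 2 Affymetrix arrays, 1 per clone. Both clones carried the same modification and were kept undifferentiated in ES medium with fetal bovine serum and LIF, the cytokine that sustains mouse ES cell self-renewal. The sources used here do not say how the overexpression was driven. The study's controls, wild-type ES clones deposited earlier, were not analysed here, so no value below measures an effect of Klf5.

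Innate immunity in most cell types begins with receptors that detect microbial nucleic acids or lipids: Toll-like receptors in membranes, and RIG-I (the product of Ddx58) and related helicases in the cytosol, which signal through the adaptor MAVS. The transcription factors IRF3 and IRF7 then switch on interferon genes, and secreted interferon acts through its receptors, JAK kinases and the STAT2 and IRF9 proteins to induce a large set of antiviral effectors, many of which carry the interferon-stimulated response element in their promoters. Mouse ES cells are known for a weak interferon response, and several antiviral effectors, the IFITM proteins among them, are known to be made constitutively in pluripotent cells.

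Promoter stretches with the core of the interferon-stimulated response element are shown first, because genes of this set with and without signal carry it, although most of the set did not hold it in the window read. The core was searched as GAAA, any 2 bases and GAAA on both strands in RefSeq promoters (GRCm38.p6, 250 bases before and 50 after an annotated start). Of the 75 genes, 61 had a promoter in the table, and 20 of these (32.8%) held it, against 3.44% of all 32851 promoters and 3.64% of 14368 measured genes. Several of the 20 belong to gene clusters with related sequence, so they are not independent. The core was found in genes with high signal and in genes at background. The stretches below are written in the direction of transcription with each core in capitals, all upstream of the start used; the first 3 genes were above background in both clones, Ifi203 in clone 1 alone, and the last 4 in neither.
Ifitm2, chr7:140955988-140956017, minus strand: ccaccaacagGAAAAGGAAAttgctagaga
Oas1a, chr5:120907526-120907570, minus strand: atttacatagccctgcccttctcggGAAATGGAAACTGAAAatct
Stat2, chr10:128270251-128270310, plus strand: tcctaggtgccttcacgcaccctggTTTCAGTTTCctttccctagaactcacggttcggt
Ifi203, chr1:173942508-173942537, minus strand: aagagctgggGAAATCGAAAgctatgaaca
Ifi213, chr1:173599326-173599355, minus strand: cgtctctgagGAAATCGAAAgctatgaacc
Ifit1, chr19:34640760-34640838, plus strand: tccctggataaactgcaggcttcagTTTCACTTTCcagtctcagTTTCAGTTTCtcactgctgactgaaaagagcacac
Gbp2, chr3:142620579-142620638, plus strand: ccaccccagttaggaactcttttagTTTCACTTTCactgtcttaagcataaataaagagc
Oas3, chr5:120777700-120777759, minus strand: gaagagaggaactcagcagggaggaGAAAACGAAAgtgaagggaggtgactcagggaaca
Oas1a holds 2 overlapping cores and Ifit1 holds 2 separate ones. Ifi203 and Ifi213 share an unbroken run of 20 bases across the core. The stretches of Stat2, Ifit1, Gbp2 and Oas3 lie outside the gene's annotated span, whereas those of Ifitm2 and Ifi203 lie within it. Those of Oas1a and Ifi213 lie within it in part. The annotated spans of Ifitm2, Ifi203, Oas1a and Ifi213 thus reach further upstream than the start used.

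Values are log2 signals as deposited, 1 per probe set and array, and each gene is given by its brightest probe set. A gene was called above background where this signal exceeded a level taken from 63 genes that are typical of differentiated adult organs (milk, lens, pancreas, liver, muscle and pituitary genes), the 95th percentile of their 91 probe sets, which was 6.20 in clone 1 and 5.98 in clone 2. Because probe sets differ in affinity, signals were not ranked between genes as abundance, and a signal under this level bounds a transcript without showing its absence. In RNA of whole cultures, fewer expressing cells and less RNA per cell cannot be told apart. Both arrays form 1 group (n = 2), a difference between the clones rests on 1 array each, and no p-value was computed. Klf5 gave 11.61 in clone 1 and 12.25 in clone 2. All 12 ES cell markers examined, Pou5f1, Nanog and Sox2 among them, were above background in both clones.

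Of the 75 interferon and innate sensing genes, 24 (32.0%) were above background in both clones, against 52.8% of all genes. In at least 1 clone 25 passed (33.3%, against 56.5% of all genes). Ifi203 passed in clone 1 alone, as 3.78% of all genes did in 1 clone, and 50 passed in neither clone (66.7%, against 43.5% of all genes). The share among these genes was thus the lower. It remained lower than that of all genes under each of the 9 alternative settings of background, normalization and probe set choice. These gave 24.0% to 45.3% against 43.7% to 66.2%. Median normalization moves an array and its background level alike, so it cannot change a call. Quantile normalization keeps the order within an array and can hardly change one. Without the 4 genes that match by name only, 20 of 71 (28.2%) passed in both clones. A gene with more probe sets passes more easily by its brightest one. The 75 genes had 114 probe sets, fewer per gene than the 34945 of all 18193 genes. As a mean over probe sets the shares were 26.7% and 43.7%.

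**Figure D1:**
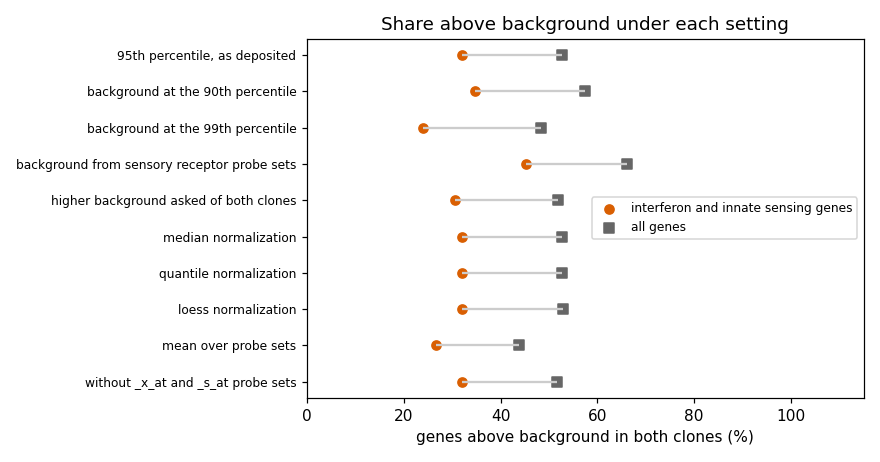
Percent of genes above background in both clones (horizontal axis) among the 75 genes (circles) and among all genes (squares), for the values as deposited with background at the 95th percentile and for each of the 9 alternative settings. The circles lie left of the squares in every row.

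In the plot of signals by role, no gene of the Ifit, Mx, Gbp or Ifi200 groups lies above the levels in both clones. All 3 IRF2-binding proteins, which match by name only, and 3 of 4 interferon receptors do, against 52.8% of all genes.

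**Figure D2:**
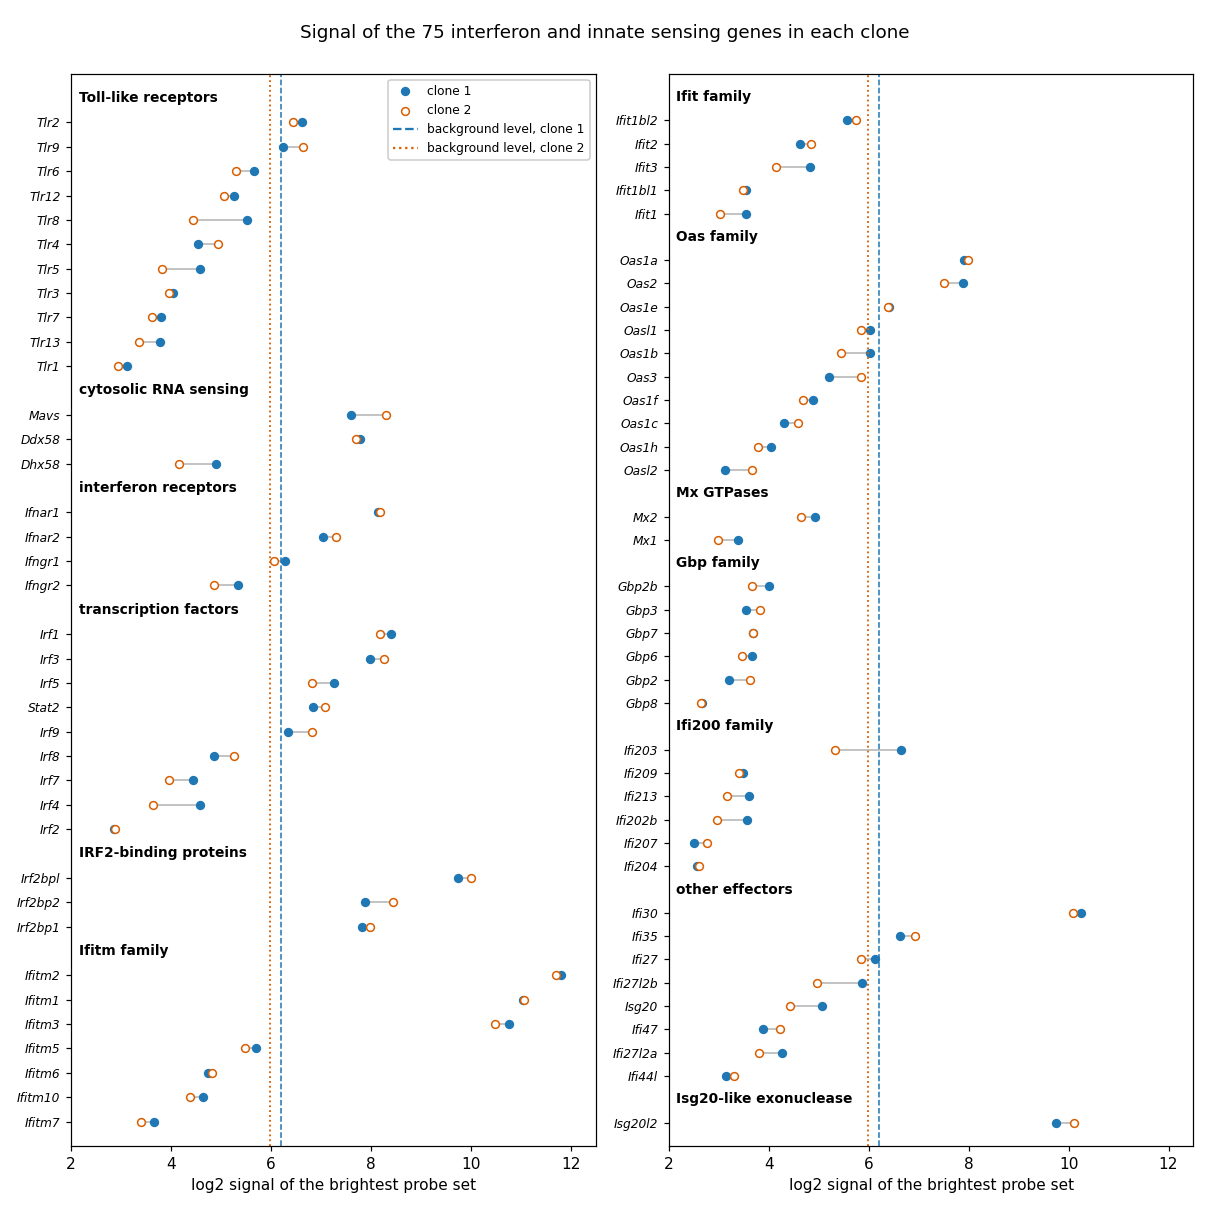
Log2 signal of the brightest probe set of each of the 75 genes (horizontal axis), by role, in clone 1 (filled) and clone 2 (open); dashed and dotted vertical lines mark the background levels of 6.20 and 5.98. Most effector families lie left of the lines, and Ifitm1, Ifitm2, Ifitm3, Ifi30 and the IRF2-binding proteins lie well to the right.

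Among the Toll-like receptors, 2 of 11 were above background in both clones, against 52.8% of all genes. Tlr2, a receptor of bacterial lipoproteins, gave 6.61 in clone 1 and 6.44 in clone 2 (6.53 ± 0.12, SD, n = 2). Tlr9, which detects unmethylated CpG DNA in endosomes, gave 6.24 and 6.63 (6.44 ± 0.28, SD, n = 2). Both lay close to the background level and fell below it in at least 1 clone with background at the 99th percentile. The receptors of double-stranded RNA and of lipopolysaccharide were not above background: Tlr3 gave 4.04 and 3.96, and Tlr4 4.53 and 4.93. Over all 11 genes the signals ran from 3.11 to 6.61 in clone 1 and from 2.94 to 6.63 in clone 2.

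The cytosolic RNA-sensing pathway was read by 3 genes, and 2 passed in both clones, against 52.8% of all genes. Ddx58, which encodes RIG-I, the sensor of RNA with triphosphate ends, gave 7.79 and 7.71 (7.75 ± 0.06, SD, n = 2). Its other probe sets, at 5.59 and 5.48 and at 5.19 and 3.88, were not above background, and as a mean over its probe sets the gene fell below the level. Mavs, the mitochondrial adaptor of these sensors, gave 7.61 and 8.31 (7.96 ± 0.49, SD, n = 2), and its other probe set gave 7.52 and 7.74. Dhx58 (LGP2), a regulator of RIG-I signalling that interferon induces, gave 4.90 and 4.16 and was above background in neither clone. By their brightest probe sets Ddx58 and Mavs were thus above background, and Dhx58 was not. Ifih1, a further cytosolic sensor outside the name rule, gave 3.41 and 3.55 and passed in neither clone.

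Other sensors and adaptors, from a list of 33 symbols (2 genes stand under an old and a current symbol) outside the name rule, were above background in both clones for 14 of 25 measured (56.0%), close to the 52.8% of all genes. Trim25, a ubiquitin ligase that activates RIG-I, gave 11.38 and 11.42. Tbk1, the kinase that phosphorylates IRF3, gave 9.52 and 9.69, and Myd88, the adaptor of most Toll-like receptors, 7.05 and 7.14. Irak1, a kinase downstream of MYD88, gave 7.98 and 8.61, and Ikbkb, a kinase of the NF-kappaB pathway, 7.68 and 8.26. As a mean over its probe sets Ikbkb passed in 1 clone alone. The probe sets of Trim25, Tbk1 and Irak1 may bind several transcripts. Without such probe sets their mean signals were 11.095, 8.25 and 7.92, still above both levels. Ifih1 (MDA5), the cytosolic sensor of long double-stranded RNA, gave 3.41 and 3.55 and was above background in neither clone. The 17 listed genes that passed in 1 clone or both had a median difference of 0.09 (clone 2 minus clone 1, log2). Over all genes that passed in 1 clone or both it was 0.08. By 2-fold 0 of 25 differed, against 0.308% of all genes.

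Of 10 measured interferon genes, 0 were above background in either clone, against 56.5% of all genes in at least 1 clone. Ifnb1, the interferon first made on viral infection of most cells, gave 4.66 and 3.92. Ifng, the interferon of lymphocytes, gave 2.83 and 2.76. The highest signals of the list were 5.52 in clone 1 and 4.99 in clone 2, both of Ifnz.

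The receptors of interferon were above background in both clones for 3 of 4 genes, against 52.8% of all genes. Ifnar1, which with Ifnar2 forms the receptor of type I interferon, gave 8.15 and 8.19 (8.17 ± 0.03, SD, n = 2). Ifnar2 gave 7.04 and 7.31 (7.18 ± 0.19, SD, n = 2). Both type I receptor chains were therefore read above background in both clones, each by 1 of its probe sets; Ifnar2 fell below the level as a mean over its 3 probe sets. Of the type II receptor, Ifngr1, which binds interferon gamma, gave 6.28 and 6.06, which exceeds the levels by 0.08 in each clone. Ifngr2, its signalling partner, gave 5.33 and 4.85 and passed in neither clone. Ifngr1 was below the level in both clones with background at the 99th percentile, so its call rests on where the level is set.

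The kinases and feedback inhibitors of the receptors passed in both clones for 11 of 14 genes (78.6%, against 52.8% of all genes). The receptor kinases Jak1 (9.11 and 9.22), Tyk2 (8.11 and 8.24) and Jak2 (7.25 and 7.53) were among them. Socs3, a feedback inhibitor that STAT3 induces in LIF-treated ES cells, gave 11.32 and 11.44, and the phosphatase Ptpn2, which acts on JAK kinases, 11.02 and 10.99. The Socs3 probe set may bind several transcripts, and without such probe sets its mean signal was 9.285. The feedback inhibitors most tied to interferon did not pass: Socs1 gave 5.10 and 5.52, and Usp18, which blocks IFNAR2 signalling, 3.59 and 3.71.

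Of the 9 transcription factors, 5 were above background in both clones, close to the 52.8% of all genes. Irf1, an activator of interferon-responsive genes, gave 8.40 and 8.19 (8.30 ± 0.15, SD, n = 2). Irf3, the factor activated by TBK1, gave 7.98 and 8.27 (8.13 ± 0.21, SD, n = 2) by a probe set that may bind several transcripts. Of its 4 probe sets, a further one gave 6.84 and 6.79. The remaining ones were above background in neither clone, with signals of at most 5.43 in clone 1 and 5.36 in clone 2. Irf5, which acts downstream of Toll-like receptors, gave 7.26 and 6.81 (7.04 ± 0.32, SD, n = 2). Its other probe set gave 6.02 in each clone, which is above the level of clone 2 alone. These 3 genes were above background in both clones under every setting tried.

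Stat2 and Irf9 encode partners in the complex that interferon assembles on the response element. Stat2 gave 6.84 and 7.09 (6.97 ± 0.18, SD, n = 2), and its core match in the promoter starts 222 bases upstream. Irf9 gave 6.34 and 6.82 (6.58 ± 0.34, SD, n = 2) and was not above the level of both clones with background at the 99th percentile. Irf7, an interferon-induced factor that amplifies the response, gave 4.44 and 3.95 and was above background in neither clone. The blood lineage factors Irf4 (4.58 and 3.63) and Irf8 (4.85 and 5.25) and the repressor Irf2 (2.86 and 2.87) were also below the levels.

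The Ifitm genes encode membrane proteins that hinder the entry of enveloped viruses. In both clones 3 of 7 measured passed, against 52.8% of all genes. Ifitm1 gave 11.04 in clone 1 and 11.06 in clone 2 (11.05 ± 0.01, SD, n = 2). Ifitm2 gave 11.81 and 11.70 (11.76 ± 0.08, SD, n = 2), and Ifitm3, which also marks early germ cells, 10.76 and 10.49 (10.63 ± 0.19, SD, n = 2). These 3 genes exceeded the levels by more than 4 on the log2 scale in both clones and passed under every setting tried. The other 4 measured members did not pass, with signals of 3.65 to 5.70 in clone 1 and 3.39 to 5.47 in clone 2. Ifitm5, expressed in bone-forming cells, gave 5.70 and 5.47 and passed in both clones when the level was taken from sensory receptor probe sets. Ifitm6 gave 4.74 and 4.81. Both lie on chromosome 7, as Ifitm1, Ifitm2 and Ifitm3 do.

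The Oas genes are named for enzymes that sense double-stranded RNA and make the oligoadenylates that activate RNase L. Whether each member has this activity was not examined. Of 10 measured, 3 passed in both clones, against 52.8% of all genes. Oas1a gave 7.90 and 7.98 (7.94 ± 0.06, SD, n = 2), and Oas2 7.88 and 7.50 (7.69 ± 0.27, SD, n = 2), both above background under every setting tried. Oas1e gave 6.40 and 6.38 and was not above the level of both clones with background at the 99th percentile. The other 7 ran from 3.13 to 6.03 in clone 1 and from 3.67 to 5.85 in clone 2, among them Oas3 at 5.20 and 5.85 and Oasl2 at 3.13 and 3.67. The Oas1 genes are close paralogs in a cluster on chromosome 5, so signal of Oas1a and Oas1e may be shared between copies, which was not tested.

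The Ifit, Mx and Gbp genes were not above background in either clone, as was so for 43.5% of all genes. Of the 5 Ifit genes on chromosome 19, which encode proteins that bind viral RNA, 0 passed in either clone: Ifit1 gave 3.55 and 3.03, Ifit2 4.63 and 4.85, and Ifit3 4.82 and 4.14. The dynamin-like antiviral GTPases Mx1 (3.38 and 2.99) and Mx2 (4.93 and 4.64) did not pass. Of the 6 Gbp genes, GTPases that attack vacuoles of intracellular pathogens, 0 passed, with signals of 2.67 to 4.01 in clone 1 and 2.64 to 3.83 in clone 2. These 13 genes were above background in both clones under none of the settings, with the exception of Ifit1bl2 (5.57 and 5.75) when the level was taken from sensory receptor probe sets.

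The Ifi200 genes of chromosome 1 encode proteins that bind DNA or regulate transcription. Of 6 measured, 5 lay between 2.50 and 3.60 in clone 1 and between 2.61 and 3.41 in clone 2. Ifi203 stood apart with 6.64 in clone 1 and 5.32 in clone 2. Of the 75 genes, 1 differed by 2-fold or more with the higher clone above background, and this was Ifi203, at 2.50-fold as measured and at least 1.58-fold when clone 2 was raised to its background level. Across all genes, 0.308% differed by 2-fold under this rule, 0.0879% higher in clone 1 and 0.22% higher in clone 2. The Ifi203 value rests on a single probe set and 1 array per clone.

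Among the remaining effectors, 2 of 8 passed in both clones, against 52.8% of all genes. Ifi30, a lysosomal thiol reductase that serves antigen processing, gave 10.25 and 10.09 (10.17 ± 0.11, SD, n = 2). Ifi35 gave 6.62 and 6.92 (6.77 ± 0.21, SD, n = 2) by a probe set that may bind several transcripts, and 5.67 and 5.61 by the probe set without that property, which is below the levels. Ifi27, a mitochondrial protein gene induced by interferon, gave 6.12 and 5.84, just under the levels. Ifi44l (3.14 and 3.30), Ifi47 (3.88 and 4.22) and Isg20, an exonuclease of viral RNA (5.06 and 4.43), did not pass.

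The 4 genes matched by name only were above background in both clones by their brightest probe sets. Irf2bpl gave 9.74 and 10.01, Isg20l2 9.74 and 10.11, Irf2bp2 7.89 and 8.45 and Irf2bp1 7.82 and 7.98. The Irf2bpl probe set may bind several transcripts, and another without that property gave 8.56 and 8.84. As a mean over its 4 probe sets Irf2bp2 passed in 1 clone alone. These genes are not known as interferon-induced effectors and make up 4 of the 24 genes that passed.

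Interferon-stimulated effectors outside the name rule, from a list of 42 genes, passed in both clones for 17 of 39 measured (43.6%, against 52.8% of all genes). Among them were Ly6e (10.27 and 10.23), a membrane protein that hinders coronavirus fusion, Apobec3 (10.04 ± 0.06, SD, n = 2), a cytidine deaminase that restricts retroviruses, Pml (9.21 and 9.42), which organises nuclear bodies, and Samhd1 (8.43 and 8.66), which depletes deoxynucleotides. The mean signal of Ly6e, 10.25, came from a probe set that may bind several transcripts; without such probe sets it was 6.34, still above both levels. Bst2 (tetherin), which holds budding virus at the membrane, gave 8.47 and 8.56, B2m, the light chain of class I antigen presentation, 7.82 and 7.85, and Eif2ak2 (PKR), the kinase activated by double-stranded RNA, 6.76 and 6.80. As a mean over its probe sets Eif2ak2 passed in 1 clone alone. Rsad2 (viperin), at 5.45 and 4.74, and the chemokine gene Cxcl10, at 4.90 and 4.22, were above background in neither clone. Effectors above background and effectors below it were thus found both within and outside the name rule.

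**Figure D3:**
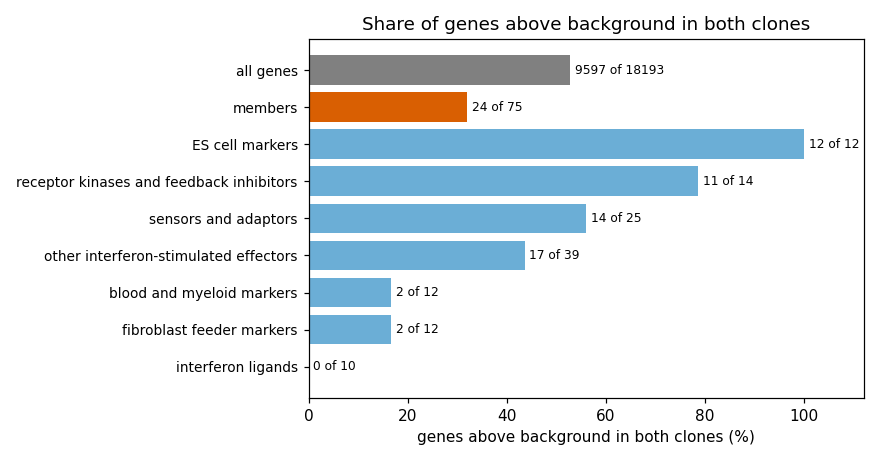
Percent of genes above background in both clones (horizontal axis) for all genes, for the 75 interferon and innate sensing genes (members) and for each list, with counts at the bars. The 75 genes stand at 32.0%, below the 52.8% of all genes, and the interferon genes at 0 of 10.

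Markers of cell types that make or answer interferon strongly were examined in the same way. Of 12 blood and myeloid markers 2 passed in both clones (16.7%, against 52.8% of all genes). These were Cd68 (7.65 and 7.84), which is also found in lysosomes of other cells, and Cd3e (6.50 and 6.34). Csf1r (6.49 and 5.69) passed in clone 1 alone, and the defining leukocyte marker Ptprc gave 3.30 and 3.28. The list ran from 3.19 to 7.65 in clone 1 and from 2.98 to 7.84 in clone 2. Fibroblast feeder markers passed in both clones for 2 of 12 genes (16.7%), Thy1 (7.54 and 7.66) and Pdgfrb (7.33 and 7.16). Acta2 (5.99 and 6.35) passed in clone 2 alone. The collagen genes of that list did not pass. The part of other cells in the signals of the 75 genes was not tested.

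The promoter core and the signal were set side by side. Of the 20 genes with the core, 5 were above background in both clones (Ifitm2, Ifitm3, Oas1a, Stat2 and Ddx58), Ifi203 was so in clone 1 alone, and 14 in neither. Among genes above background in both clones 5 of 22 with a promoter held it (22.7%), and among genes above background in neither clone 14 of 38 (36.8%). Over all measured genes the shares were 3.11% of 7850 and 4.41% of 5981. In Ifitm3 and Ddx58 every match lies after the start, within the 50 transcribed bases of the window. Stated from the other side, 25% of the genes of the family with the core passed in both clones, against 41.5% of those without it, 46.7% of all measured genes with it and 54.9% of all measured genes without it. The shorter core of the STAT site, TTCNNNGAA, which reads the same on both strands, was present in 17 of the 61 genes (27.9%) and in 8.30% of all promoters. It was held by 7 of 22 genes above background in both clones (31.8%) and by 10 of 38 in neither (26.3%). The cores overlapped in 1 gene of the 61. A match of these letters is a description of the sequence and not a measured binding site.

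Between the clones, the genes of this set above background differed by less than 2-fold, with the exception of Ifi203. Over the 24 above background in both, the differences (clone 2 minus clone 1) ran from -0.45 in Irf5 to 0.70 in Mavs, with a median of 0.06 and an SD of 0.305, against a median of 0.08 and an SD of 0.257 over the 9597 genes of that kind. The median absolute difference was 0.26 for the 24 and 0.17 for all. Of the 24, 14 (58.3%) were higher in clone 2, against 61.9% of all. This split depends on the scaling of the arrays: with quantile or loess normalization 11 were higher in clone 2 and 13 lower, and all genes moved alike, to 46.5% and 49.7% higher; with median normalization 16 were higher and 8 lower (66.7% higher, against 76.0% of all).

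Of the 25 genes that passed in 1 clone or both, 7 changed sign under another normalization or probe set choice: Ddx58, Ifi35, Ifitm1, Ifnar1, Irf3, Oas1a and Oas1e. Mavs differed most of those above background in both clones, by 1.62-fold in its brightest probe set, which may bind several transcripts, and by 0.22 on the log2 scale in the other. Irf2bp2 followed with 0.56 and Irf9 with 0.48, both higher in clone 2; Irf5 (-0.45) and Oas2 (-0.38) were higher in clone 1. At a rule of 1.5-fold, 2 of the 75 genes differed, Ifi203 and Mavs, against 2.8% of all genes.

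**Figure D4:**
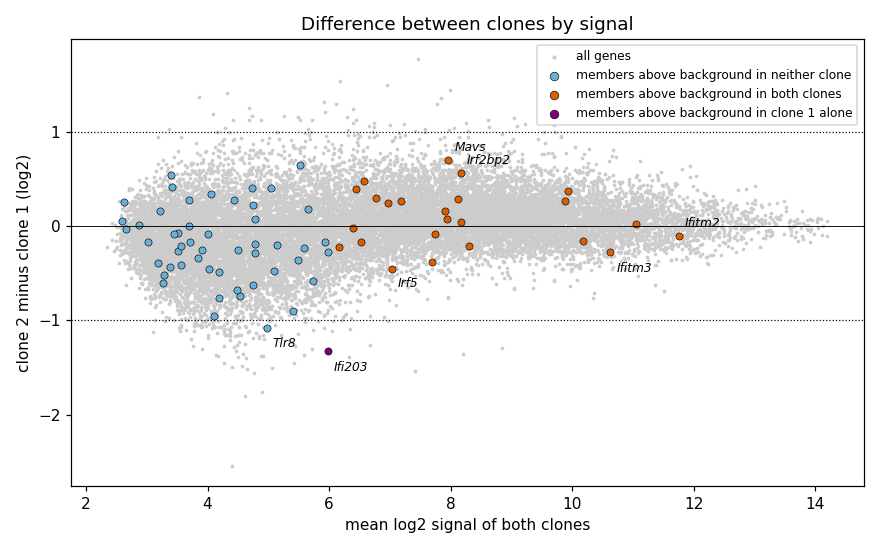
Difference between the clones (clone 2 minus clone 1, log2, vertical axis) against the mean log2 signal (horizontal axis) for all genes (grey) and the 75 genes (coloured by their background call); dotted lines mark 2-fold. Ifi203 and Tlr8 are the coloured points beyond the lower line, and Tlr8 (5.51 and 4.43) was above background in neither clone.

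Of the 50 genes above background in neither clone, 34 had the lower signal in clone 2, with a median difference of -0.205. Over the 7908 genes of all kinds below the levels the median was -0.16, and 32.1% had the higher signal in clone 2, against 15 of the 50. The shift below background is therefore found over all genes alike and is not a result about this family.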

How the data were processed

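Array expression was measured in 2 Klf5OE ES clones, 1 array each. Per the submitters' processing notes, the authors used Transcriptome Analysis Console; the deposited table holds 1 signal for each probe set and array, read here as log2. The sources used here do not give background correction, summarisation, normalization or log base, and base 2 was taken from the range of 2.21 to 14.38. Values were used as deposited; array medians were 5.27 and 5.18. Of 45037 probe sets, 34945 had 1 gene symbol in the platform annotation, 932 several and 9160 are unnamed here. Each gene was represented by its probe set with the highest mean. Calls, differences and a size rule of 2-fold were computed in Python 3.11.15 with pandas 2.3.3 and statsmodels 0.14.6. With 1 array per clone no test was made; precision is limited by having only 2 arrays. The labels do not say whether the clones were grown or hybridised together. Alternatives were 4 other background levels, median, quantile and loess normalization, 2 other probe set choices and each clone alone. Named were all members above background, those past 2-fold and listed defining genes, and per list the 4 brightest; Irf2, Irf4, Irf8, Ifi44l, Ifi47, Isg20, Oas3, Oasl2, Ifitm5, Ifitm6, Ifit1bl2, Ifi213, Gbp2, Tlr8, Ifnz, Ifng, Ptprc, Csf1r and Acta2 were chosen after their values were seen. Members and lists were chosen with earlier results of these data known.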

Additional observations from a re-analysis of the deposited data

How the results depend on the processing

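The count of the 75 genes above background in both clones (24) ranged from 18 with background at the 99th percentile to 34 with the level from sensory receptor probe sets, and was 24 or 25 in each clone alone. In every one of the 10 settings 15 genes passed in both clones, and 41 passed in none. The same counts are not given for all genes, so they are not a result about this family. The median difference of 0.04 ranged from -0.08 to 0.13 and fell below 0 with quantile (-0.06) or loess (-0.03) normalization and with the sensory receptor level; without the 4 genes matched by name only (chosen after the data were seen) it was -0.02. Genes at 2-fold numbered 2 with the sensory receptor level, where Tlr8 joined, and 2 at 1.5-fold. Under the sensory receptor level 5 blood and myeloid markers, 6 fibroblast feeder markers and 1 interferon gene passed in both clones, and at the 99th percentile 1 blood and myeloid marker; these follow from a lower or higher level. Mean signals of 70 named genes moved by more than the SD between clones in 40 of 140 comparisons with another probe set choice. Ly6e went from 10.25 to 6.34, for example, and Ptpn2 from 11.01 to 7.89. With another normalization 0 of 210 moved, but median and loess normalization leave the mean of both clones unchanged by construction. Of the normalizations, only quantile could have moved it, and the background level cannot move a signal. No paired analysis was possible because both samples belong to 1 group.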

Other observations

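A further 10 probe sets list a symbol of this family together with other symbols and were used in no comparison; 0 of them were above background in both clones.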
